A study of Rattus norvegicus with 16 samples.

Results

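Translation initiation and elongation factors were followed in liver RNA of rats with and without sepsis. The genes were chosen by symbol: every symbol that begins with Eif1 to Eif6 or with Eef1 or Eef2, together with Etf1, but without the stress kinases Eif2ak2 and Eif2ak3. The rule took 62 of the 17055 gene symbols in the count tables, and each of the 62 had reads in all 16 libraries. Of these, 4 symbols (Eif2c1, Eif2c2, Eif2c3 and Eif2c4) are older names of the Argonaute genes. They serve in microRNA silencing and share only a name with eIF2. The other 58 carry names of translation factors or their regulators, but not all act as such. Eif4a3 is the exon junction helicase, and Eef1e1 encodes a scaffold protein of the aminoacyl-tRNA synthetase complex. Liver was taken from 48 male Sprague-Dawley rats aged 10 weeks, 8 h after celiotomy, and liver of 3 rats was pooled for each library. There were 4 libraries in each of 4 groups, numbered 1 to 4 for Isoflurane-Sepsis, 5 to 8 for Isoflurane-Control, 9 to 12 for Propofol-Sepsis and 13 to 16 for Propofol-Control. The septic rats underwent cecal ligation and puncture. In the control groups the cecum was taken out and returned without ligation, so all 4 groups had anesthesia and celiotomy. The isoflurane groups were induced and kept under isoflurane, whereas the propofol groups were induced with ketamine-xylazine and kept under propofol, and no group went without anesthesia. Because each library pools rats, the spread given below is that between pools, and the spread between single rats is not measured.

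Translation of an mRNA begins when the cap-binding complex eIF4F (the cap-binding protein eIF4E, a scaffold eIF4G and the RNA helicase eIF4A) loads the small ribosomal subunit, which carries eIF1, eIF1A, eIF3, eIF5 and the initiator tRNA held by eIF2. After the start codon is found, eIF5 triggers GTP hydrolysis by eIF2, eIF5B joins the large subunit, and eIF2B recharges eIF2 with GTP. Elongation then uses eEF1A, which brings aminoacyl-tRNA, and eEF2, which moves the ribosome along the mRNA. Several brakes act on these steps: eIF4E-binding proteins hold eIF4E when mTOR is quiet, kinases phosphorylate eIF2 and so block eIF2B, and the kinase eEF2K phosphorylates and inhibits eEF2. The liver depends on this machinery to make plasma proteins, among them the acute-phase proteins of infection.

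Between 14199422 and 49937173 reads per library were assigned to genes (median 19735458). Levels are given as CPM, read counts set to a common library size after scaling by the trimmed mean of M-values (TMM), and are compared between groups for the same gene and not between genes, since CPM is not per length. Hepatocyte markers summed to between 131271 and 179927 CPM in every library. Library 10 of Propofol-Sepsis stood out from the other libraries in that 8 brain markers summed to 363 CPM there, against 4.79 to 23.6 CPM in the other 15. The fit of the propofol comparison was therefore also run without that library, while the counts of groups without overlap keep it. Neutrophil and monocyte markers summed to 36.9 to 117 CPM in Isoflurane-Sepsis against 17.8 to 20.7 in its controls, and to 37.2 to 54.2 CPM in Propofol-Sepsis against 18.8 to 26.3. Endothelial markers summed to 112 to 128 CPM against 158 to 197, and to 151 to 159 CPM against 183 to 224. The 6 endothelial markers did not all move together. At an adjusted p below 0.05 in edgeR, 4 were lower and none higher under isoflurane, and 2 lower and 1 higher under propofol. The part of these cells in the results below was not tested, and in bulk RNA fewer cells of a type and less RNA per cell cannot be told apart.

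The first comparison asked how sepsis changed the factors under isoflurane. Of the 61 members tested, 23 were higher and 7 lower in Isoflurane-Sepsis at an adjusted p below 0.05 in edgeR's quasi-likelihood test, with Benjamini-Hochberg adjustment over all genes. The higher members included genes grouped under start codon choice (Eif1, Eif1a, Eif5, and Eif1ad, which is named for an eIF1A-like domain). They also included genes of the cap complex, its helpers and relatives (Eif4a1, Eif4a2, Eif4b, Eif4e2, Eif4g2, Eif4g3) and the factors Eif5a and Eif6. The other higher members were Eif2d, Eif2s1, Eif3a, Eif3b, Eif3i, Eif4enif1, Eef1b2, Eef1g, Eef2, Etf1 and the Argonaute Eif2c2. The lower members were the kinase genes Eef2k and Eif2ak4, the eIF2B subunits Eif2b1 and Eif2b2, the binding proteins Eif4ebp2 and Eif4ebp3, and the Argonaute Eif2c1. The background was high, since 25.7% of all genes tested were called higher and 24.4% lower. The share of members called, 49.2%, was close to the 50.0% of all genes, so what differed from the background was the balance of directions: 48 of 61 members lay above 0, with a median log2 fold change of 0.17 against 0.01 over all genes. The changes were small, with a median size of 0.21 on the log2 scale against 0.36 for all genes, and only Eef2k and Eif2c2 passed a 2-fold change. Every septic library lay above every control library for 26 members and below for 9, while 48.7% of all genes had no overlap, 24.3% higher and 24.4% lower. Scaled by library totals alone, 13 members were higher and 10 lower, beside 21.6% and 28.6% of all genes. Again 48 of 61 lay above the median gene.

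The second comparison asked the same under propofol. Of 62 members tested, 10 were higher and 4 lower, where 20.4% of all genes were called higher and 21.7% lower. The share of members called, 22.6%, was below the 42.1% of all genes. At an unadjusted p below 0.05 there were 24 members, and the share of all genes at that cut is not given here. The members were nearly balanced around 0, with 34 of 62 above it and a median of 0.04. In 14 members every septic library lay above every control library and in 5 below, while 42.2% of all genes had no overlap, 21.1% in each direction. The higher members were Eif1, Eif1a, Eif1ad, Eif2d, Eif3i, Eif4enif1, Eif4g2, Eif5a, Eif6 and Eif2c2, and the lower ones Eef2k, Eif2ak4, Eif2b4 and Eif2c1. Without library 10 the counts were 13 higher and 6 lower, and the shares of all genes called in that fit are not given here. By library totals alone 6 members were higher and 7 lower, beside 16.2% and 26.1% of all genes.

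The comparisons under isoflurane and under propofol share no library, so their lists can be set beside each other. All 10 members called higher under propofol were also higher under isoflurane, which is 100% of the propofol list and 43.5% of the isoflurane list. Over all genes those shares were 69.9% and 55.8%. Of the lower members, Eef2k, Eif2ak4 and Eif2c1 were on both lists, or 75.0% of the propofol and 42.9% of the isoflurane list. Over all genes the shares of the lower lists were 68.9% and 61.4%. No member was called in opposite directions. Without library 10 the propofol list of higher members lost Eif2d and gained Eif5b, which was not called under isoflurane. It also gained Eef1b2, Eef1g and Eif3b, which were. The lower list gained Eif2c4 and Eif4e3, neither called under isoflurane.

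**Figure D1:**
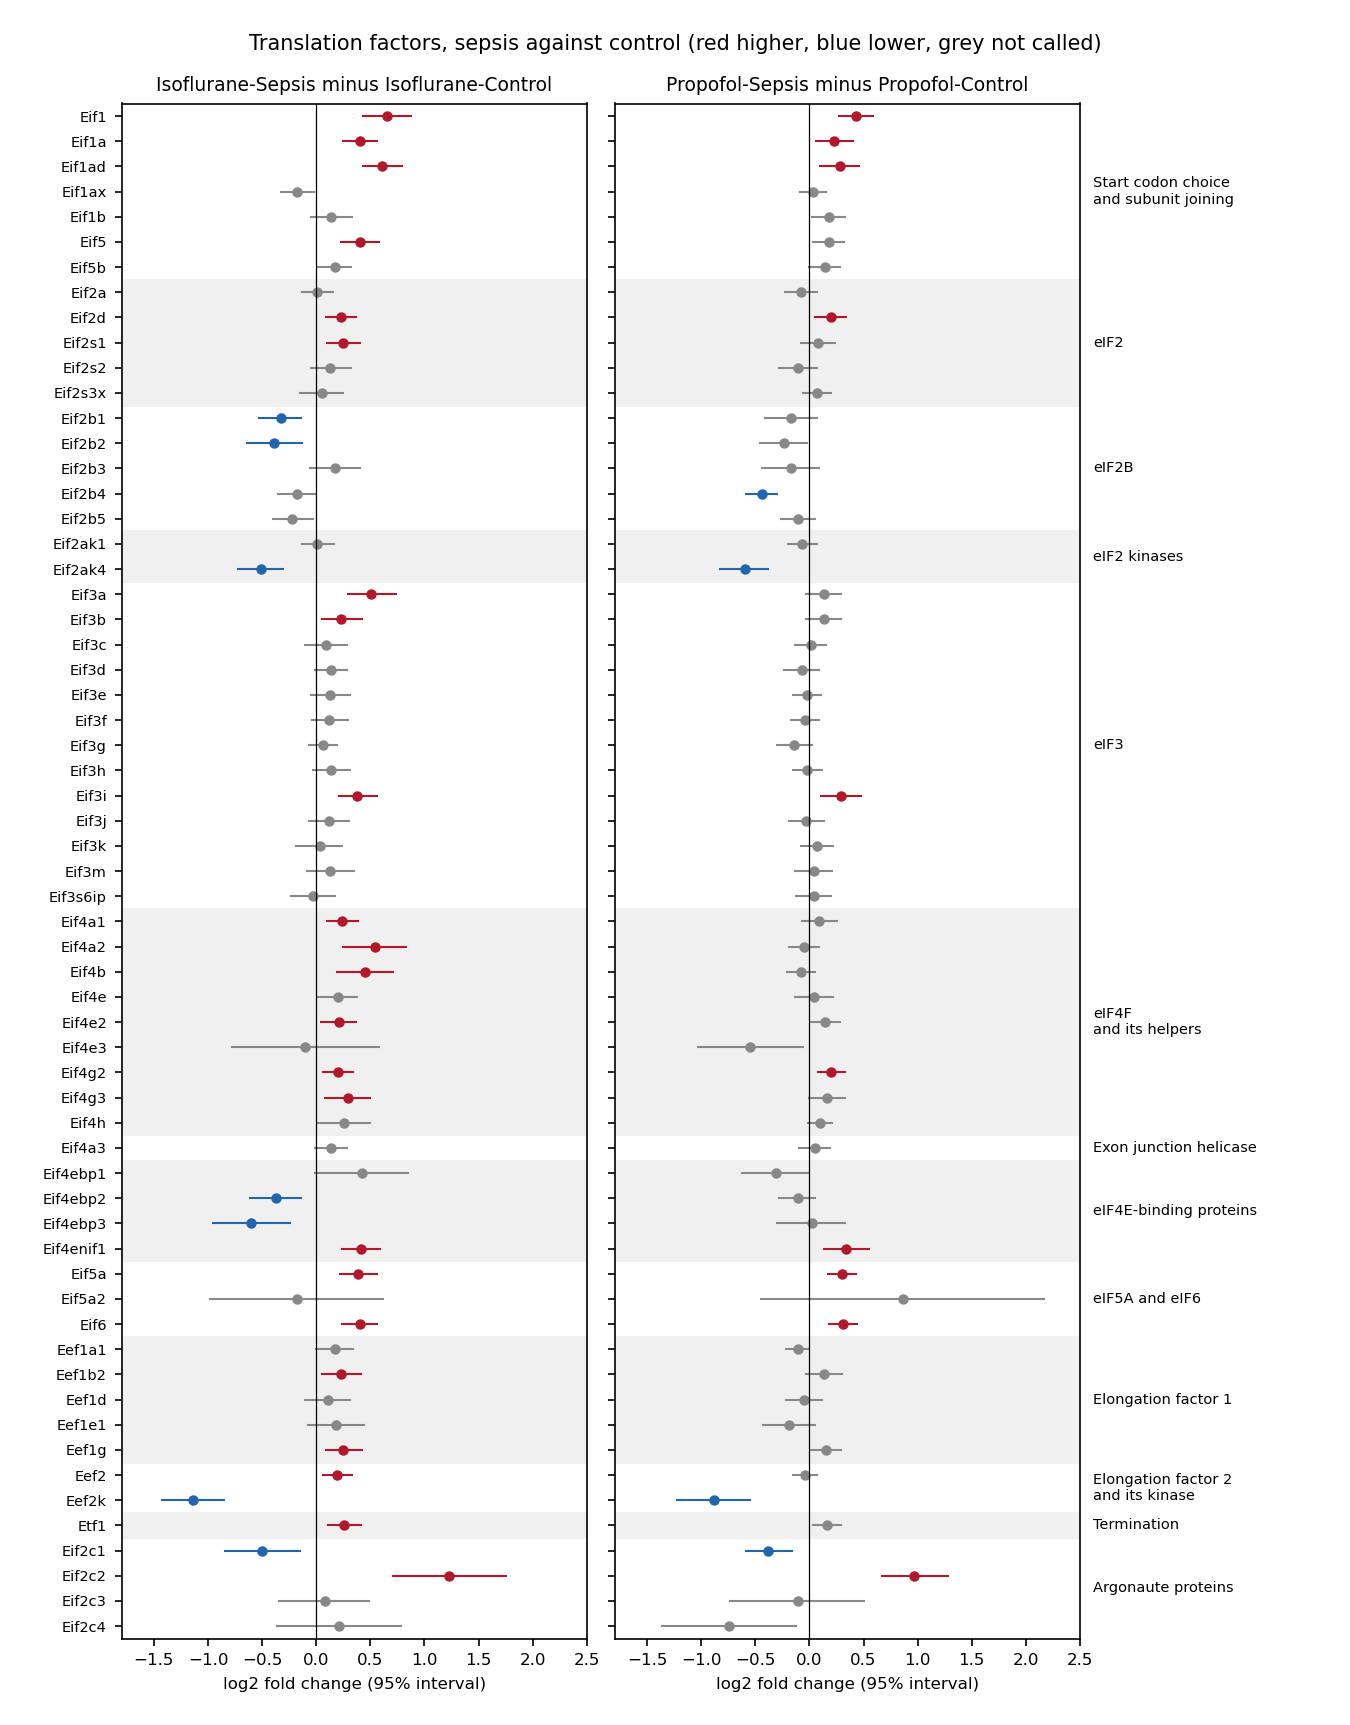
Log2 fold change of 61 members between sepsis and control under isoflurane (left) and propofol (right), as points with 95% intervals and ordered by role (Eef1a2, not tested under isoflurane, is left out). Red and blue points were called higher and lower, with 23 and 7 on the left and 10 and 4 on the right, and Eef2k has the lowest value in both panels.

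Among the 7 genes grouped under start codon choice and subunit joining, 4 were higher and none lower under isoflurane (median log2 fold change 0.40). Under propofol 3 were higher and none lower (median 0.18). Over all genes 25.7% were called higher under isoflurane and 20.4% under propofol. Eif1, whose product keeps the scanning ribosome from stopping at the wrong codon, measured 243, 283, 265 and 289 CPM in the Isoflurane-Sepsis libraries against 184, 180, 144 and 179 in Isoflurane-Control. In the propofol groups it measured 169, 205, 176 and 188 CPM with sepsis and 136, 137, 142 and 129 without. Every septic library lay above every control library of its anesthetic, at a log2 fold change of 0.65 ± 0.0988 (SE, adjusted p = 9.1e-04) under isoflurane and 0.43 ± 0.0712 (adjusted p = 0.00114) under propofol in edgeR. Control library 7 held the low value of 144 CPM, and without it the isoflurane value was 0.58 (adjusted p = 0.00260). Eif1ad, named for an eIF1A-like domain, ranged from 55.0 to 66.4 CPM with sepsis and from 37.0 to 40.6 without under isoflurane, and the groups did not overlap. Under propofol its septic libraries (50.4, 58.0, 56.0 and 56.4 CPM) overlapped the controls (42.4, 46.1, 51.7 and 41.3 CPM), and it rose by 0.28 against 0.61 under isoflurane, with the propofol call lost without library 13, without library 16 and by library totals alone. Eif1a, which holds the scanning complex open, rose by 0.40 and 0.23, although the propofol call was lost in 5 of 8 fits with 1 library left out. Eif5, the GTPase activator of eIF2, rose by 0.40 under isoflurane (adjusted p = 0.00282) and had a value of 0.18 under propofol (adjusted p = 0.0513). Under propofol Eif5 was called higher in 4 of 8 alternative fits and in 1 of 8 fits with 1 library left out. Eif1ax, a close relative of Eif1a, had lower values with sepsis under isoflurane. Its Isoflurane-Sepsis libraries held 43.8, 43.8, 37.7 and 40.2 CPM, all below the 44.7 to 48.6 CPM of the controls. The difference of -0.18 missed the threshold (adjusted p = 0.0551), but it was called in 5 of 8 alternative fits and in 2 of 8 fits with 1 library left out. Under propofol the means of Eif1ax were 49.9 CPM with sepsis and 48.6 CPM without, a difference of 0.03. Eif1 and Eif1b, Eif1a and Eif1ax, Eif4a1 and Eif4a2, Eif5a and Eif5a2, and Eef1a1 and Eef1a2 are pairs of similar genes whose reads the counting could have split, so the level of each within its pair is uncertain.

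Of the 5 genes of the eIF2 group, 2 were higher under isoflurane and 1 under propofol, beside 25.7% and 20.4% of all genes. None was lower. Eif2s1, the alpha subunit that the stress kinases phosphorylate, measured 89.9, 96.9, 84.7 and 84.3 CPM in Isoflurane-Sepsis and 78.0, 75.7, 72.7 and 73.9 in its controls. These groups were separate, with a log2 fold change of 0.25 ± 0.0668 (adjusted p = 0.0138), a call lost without control library 8 and by library totals alone. Under propofol the values of 95.4, 85.0, 94.5 and 98.6 CPM overlapped the control values of 92.0, 86.2, 94.5 and 80.1 CPM. The beta and gamma subunits, Eif2s2 and Eif2s3x, passed the test in neither comparison, with values between -0.11 and 0.13. Eif2d, which can place initiator tRNA without eIF2, rose by 0.23 under isoflurane and by 0.20 under propofol, and the propofol call was lost in 6 of 8 fits with 1 library left out. By library totals alone Eif2d was called under neither anesthetic (adjusted p = 0.0634 under isoflurane).

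Among the 5 eIF2B subunits, 2 were lower under isoflurane (median -0.22) and 1 under propofol (median -0.17). Over all genes 24.4% and 21.7% were called lower. Eif2b2, the beta subunit, fell from 15.8, 16.3, 15.2 and 15.9 CPM in Isoflurane-Control to 14.6, 12.9, 9.89 and 10.9 in Isoflurane-Sepsis (log2 fold change -0.39, adjusted p = 0.0201), a call that was lost without control library 6. Eif2b1, the alpha subunit, fell by 0.33 (adjusted p = 0.0106). Eif2b4, the delta subunit, had its larger change under propofol, from 42.9, 42.6, 42.0 and 41.8 CPM in the controls to 29.3, 29.8, 31.2 and 34.5 with sepsis. That was a log2 fold change of -0.44 ± 0.0648 (adjusted p = 6.2e-04), against -0.18 (adjusted p = 0.0703) under isoflurane, and the difference between the anesthetics of 0.25 did not pass its test (adjusted p = 0.116). Eif2b5, the catalytic subunit, lay at 49.0, 48.6, 39.7 and 40.6 CPM in Isoflurane-Sepsis, below all 4 controls at 50.4, 51.5, 52.1 and 53.0. Its difference of -0.22 stood at the threshold (adjusted p = 0.0504) and passed it in limma-voom (0.0445) and with a stricter filter on low genes (0.0440). Under propofol Eif2b5 measured 60.5, 51.7, 58.7 and 60.3 CPM against 66.4, 58.5, 62.7 and 60.4, with overlap.

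Of the 2 eIF2 kinases in the list, Eif2ak4 was lower in sepsis under both anesthetics and Eif2ak1 was called in neither. Eif2ak4 encodes GCN2, which senses uncharged tRNA. Its libraries held 14.9, 13.3, 15.2 and 17.4 CPM in Isoflurane-Sepsis and 21.5, 20.9, 23 and 21.6 in Isoflurane-Control. In Propofol-Sepsis they held 10.4, 10.9, 12.6 and 12.7 CPM and in Propofol-Control 16.4, 20.3, 17.6 and 16.5. No septic library reached a control library of its anesthetic, and the log2 fold changes were -0.51 ± 0.0913 (adjusted p = 0.00199) and -0.60 ± 0.0999 (adjusted p = 0.00122). Eif2ak1, the heme-regulated kinase, stood at 0.01 and -0.07.

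The 13 subunits of eIF3, the large scaffold on the small ribosomal subunit, were mostly not called. Under isoflurane 3 of 13 were higher, beside 25.7% of all genes, none was lower and 12 of 13 lay above 0 (median 0.13). Under propofol only Eif3i was higher, beside 20.4% of all genes, and the median was 0.01. Eif3a, the largest core subunit, rose from 299, 297, 294 and 304 CPM in Isoflurane-Control to 347, 434, 458 and 460 CPM in Isoflurane-Sepsis. The control libraries spanned 294 to 304 CPM and all septic libraries lay above them, at 0.51 ± 0.101 on the log2 scale (adjusted p = 0.00321). Under propofol Eif3a measured 324, 347, 344 and 316 CPM against 302, 296, 338 and 276 CPM, overlapping, with a log2 fold change of 0.13 (adjusted p = 0.160). Eif3i, a regulatory subunit with WD repeats, rose under both anesthetics. Its septic libraries held 49.8, 49.1, 43.9 and 44.7 CPM against 37.6, 38.2, 32.3 and 35.8 under isoflurane (0.38, adjusted p = 0.00335), and 43.8, 42.9, 53.6 and 51.8 against 40.5, 39.7, 37.6 and 38.4 under propofol (0.29, adjusted p = 0.0179). The propofol call for Eif3i was lost without library 11 (adjusted p = 0.0519) and without library 12 (0.0516). Eif3b, the third of the eIF3 subunits called under isoflurane (0.23, adjusted p = 0.0411), lost its call in 6 of 8 fits with 1 library left out.

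Of the 9 genes of the cap-binding complex and its helpers, 6 were called higher under isoflurane and 1 under propofol, beside 25.7% and 20.4% of all genes. By library totals alone only Eif4a2 and Eif4b of these kept their call under isoflurane, and none did under propofol. Eif4a1, the main helicase, measured 583, 594, 528 and 562 CPM in Isoflurane-Sepsis and 477, 500, 464 and 475 in Isoflurane-Control, without overlap (0.24, adjusted p = 0.0125, and 0.18 with adjusted p = 0.0631 by library totals alone). Under propofol it measured 558, 519, 605 and 628 against 555, 521, 566 and 520 CPM (0.09, adjusted p = 0.329). Eif4e, the cap-binding protein itself, was not called in either: 54.4, 58.0, 51.6 and 45.8 CPM against 45.0, 45.8, 46.6 and 45.8 under isoflurane gave 0.20 (adjusted p = 0.0624), and passed the test without library 4 (0.26, adjusted p = 0.00793). Under propofol Eif4e held 63.8, 53.9, 60.2 and 61.3 CPM against 63.1, 50.9, 58.3 and 58.6, a difference of 0.04 whose sign turned by library totals alone. Eif4g2, a scaffold that lacks the eIF4E site, rose by 0.20 under each anesthetic, and its propofol call was lost by library totals alone (adjusted p = 0.0687). Calls for Eif4e2, Eif4g2 and Eif4g3 under isoflurane were lost in 7, 5 and 6 of 8 fits with 1 library left out. Eif4g1, the main scaffold, was not analysed here.

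The 4 eIF4E-binding proteins did not move together. Eif4ebp3 fell under isoflurane from 20.8, 21.4, 20.6 and 21 CPM to 14.9, 18, 12.6 and 9.85 CPM, so that every septic library was below the controls, which spanned 20.6 to 21.4 CPM (-0.60 ± 0.156, adjusted p = 0.0120). Under propofol its septic libraries (22.6, 17.6, 15.7 and 21.5 CPM) covered the same range as the controls (18, 22.8, 19.8 and 15.7 CPM), with a difference of 0.02. Eif4ebp2 fell by 0.37 under isoflurane, from 69.3, 74.9, 75.2 and 72.7 CPM to 62.1, 62.0, 56.0 and 44.8 CPM (adjusted p = 0.0157), and had a value of -0.11 under propofol, where 71.7, 63.3, 66.4 and 65.8 CPM overlapped the controls at 75.5, 63.6, 70.7 and 78.1. Eif4ebp1, the best known inhibitor of eIF4E, differed in sign and passed neither test. In Isoflurane-Sepsis 3 of its libraries (44.5, 54.9 and 62.5 CPM) lay above the controls (36.3, 35.4, 36.0 and 37.2 CPM) and library 4 at 30.6 CPM lay below them. The log2 fold change was 0.42 (adjusted p = 0.0975), and 0.58 (adjusted p = 0.00408) without library 4. Under propofol 46.7, 42.9, 53.7 and 54.9 CPM stood against 55.4, 69.3, 73.2 and 47.0, a difference of -0.31 (adjusted p = 0.0997) that became -0.42 (adjusted p = 0.0263) without library 16. Eif4enif1, the transporter that carries eIF4E into the nucleus and to P-bodies, rose under both, by 0.41 (adjusted p = 0.00264) with 23.2, 25.1, 25.8 and 23.3 CPM against 17.8, 19.6, 18.4 and 17.6, and by 0.34 (adjusted p = 0.0160) with 19.1, 22.3, 18.7 and 19.9 against 16.7, 14, 17.7 and 14.5.

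Eif5a and Eif6 rose under both anesthetics. Eif5a, the hypusine-bearing factor that helps ribosomes through difficult peptide bonds, measured 462, 476, 414 and 407 CPM in Isoflurane-Sepsis against 347, 351, 315 and 333 in its controls, and 419, 440, 467 and 476 CPM in Propofol-Sepsis against 369, 361, 366 and 365. All septic libraries lay above all 8 controls, with log2 fold changes of 0.39 ± 0.0765 (adjusted p = 0.00324) and 0.30 ± 0.0578 (adjusted p = 0.00283). Eif6, which keeps the large subunit from joining too early, measured 97.0, 102, 101 and 95.3 CPM against 81.1, 75.4, 68.8 and 74.5, and 100, 94.2, 107 and 105 CPM against 84.2, 78.8, 83.1 and 81.2. It rose by 0.40 ± 0.0710 (adjusted p = 0.00190) and 0.31 ± 0.0594 (adjusted p = 0.00264). The difference between the anesthetics was 0.08 for each gene, with adjusted p-values of 0.601 for Eif5a and 0.565 for Eif6.

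Eef2k had the largest fall of all members. Eef2k measured 2.99, 2.71, 2.18 and 2.60 CPM in Isoflurane-Sepsis and 5.45, 5.25, 6.13 and 6.25 in Isoflurane-Control. In the propofol groups it measured 3.45, 4.44, 3.95 and 2.89 CPM with sepsis and 6.05, 6.93, 7.19 and 6.77 without. The septic libraries all lay below the controls of both anesthetics, at 0.454 times the control level under isoflurane (log2 fold change -1.14 ± 0.128, adjusted p = 2.3e-04) and 0.542 times under propofol (-0.88 ± 0.149, adjusted p = 0.00131). Its call held in every alternative fit of both comparisons. The difference between the anesthetics was -0.26 with a 95% interval from -0.68 to 0.15 (adjusted p = 0.417). Eef2, the substrate of this kinase, held 2155, 2297, 2216 and 2135 CPM in Isoflurane-Sepsis, above 1925, 1947, 1861 and 1974 in Isoflurane-Control. The call for that rise of 0.19 (adjusted p = 0.0269) was lost in 6 of 8 fits with 1 library left out and by library totals alone (0.13, adjusted p = 0.125). Under propofol Eef2 measured 1927, 2022, 2097 and 2037 CPM against 2056, 2009, 2127 and 2074, with a difference of -0.04.

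Eef1a1, which delivers aminoacyl-tRNA, measured 1412, 1575, 1584 and 1412 CPM in Isoflurane-Sepsis and 1321, 1329, 1284 and 1401 in Isoflurane-Control. Under propofol the order was opposite, with 1322, 1300, 1396 and 1291 CPM in sepsis, all below 1428, 1447, 1412 and 1423 CPM in the controls. Neither difference passed the test (0.17, adjusted p = 0.0855, and -0.11, adjusted p = 0.0982). Of the exchange factors of eEF1A, Eef1b2 and Eef1g rose by 0.23 and 0.25 under isoflurane. Eef1b2 lost its call in 5 of 8 fits with 1 library left out and Eef1g without library 7 or 8, and both lost it by library totals alone. Etf1, which encodes the release factor eRF1, rose from 161, 167, 154 and 161 CPM to 184, 204, 192 and 188 CPM under isoflurane (0.26, adjusted p = 0.0118). Under propofol its septic libraries (172, 173, 167 and 167 CPM) also all exceeded the controls (156, 146, 161 and 141 CPM), and the value of 0.16 stood at the threshold (adjusted p = 0.0526, and 0.0188 in DESeq2).

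**Figure D2:**
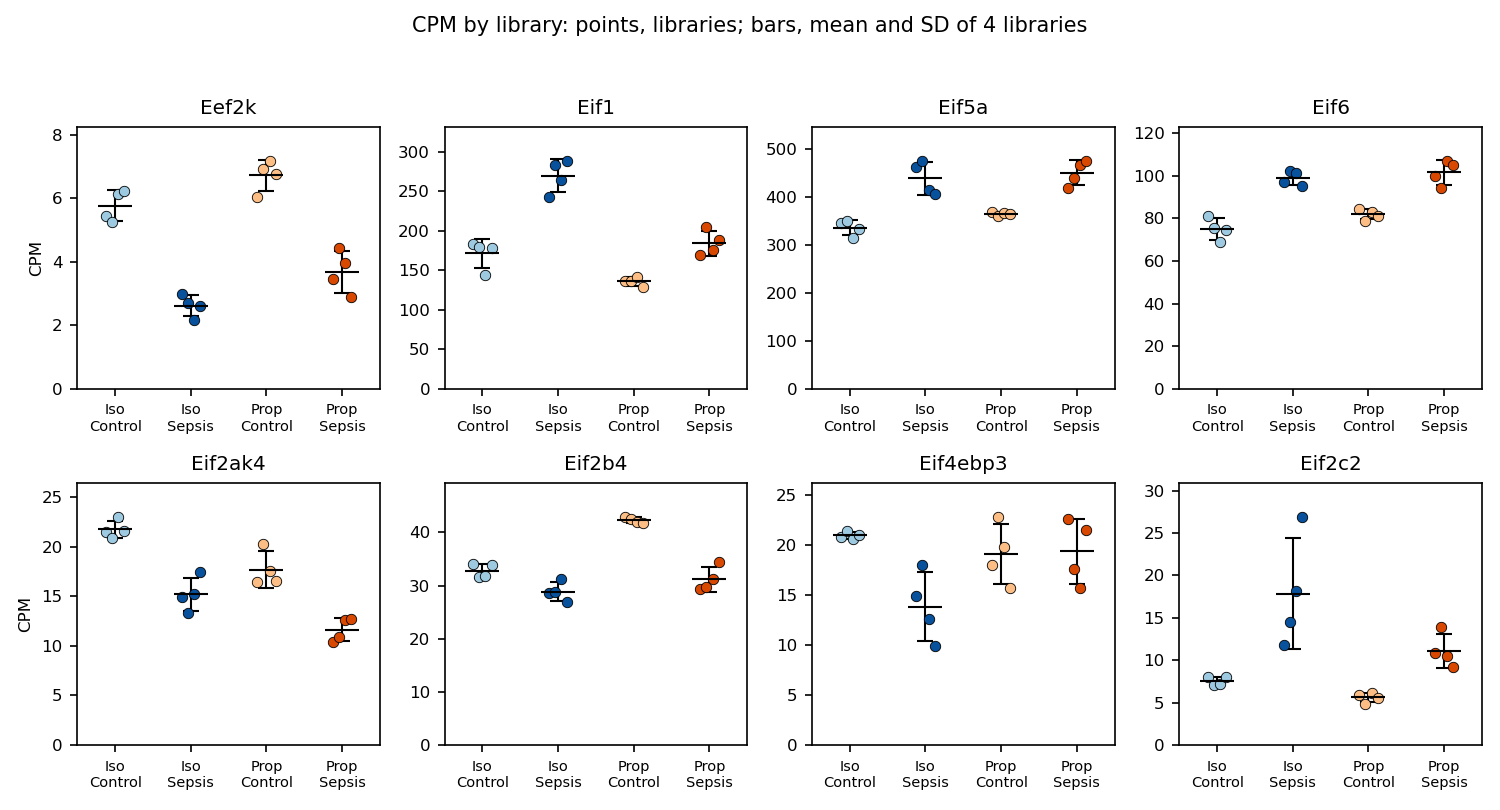
CPM of 8 members in every library, with points for libraries and a bar with whiskers for the mean and SD of the 4 libraries in each group (Iso, isoflurane; Prop, propofol). Eef2k and Eif2ak4 lie lower and Eif1, Eif5a, Eif6 and Eif2c2 higher in sepsis under both anesthetics, Eif4ebp3 was called lower under isoflurane (-0.60) and not under propofol (0.02), a difference that itself was not called, and Eif2b4 is highest in Propofol-Control at 41.8 to 42.9 CPM.

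The Argonaute genes, included by their older names, held the largest called rise in the list. Eif2c2 (Ago2, the Argonaute that can cut its target) measured 11.8, 14.5, 18.2 and 26.9 CPM in Isoflurane-Sepsis against 7.99, 7.13, 7.25 and 8.02 in the controls, and 10.8, 13.9, 10.5 and 9.24 CPM in Propofol-Sepsis against 5.92, 4.83, 6.14 and 5.57. The septic libraries were all above the controls, by 1.23 ± 0.230 (adjusted p = 0.00250) and 0.97 ± 0.139 (adjusted p = 5.3e-04). Eif2c1 fell by 0.50 (7.83, 6.06, 6.99 and 10.0 CPM against 10.3, 9.95, 12.5 and 10.9) and by 0.38 (8.13, 8.88, 8.55 and 9.61 CPM against 12.7, 11.1, 10.1 and 11.9). The isoflurane groups overlapped for Eif2c1, and 3 of 8 fits with 1 library left out lost the call. Eif2c3 and Eif2c4 were called in neither comparison. Without the Argonaute genes 22 members were higher and 6 lower under isoflurane, and 9 higher and 3 lower under propofol.

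The third comparison asked whether sepsis changed the factors differently under the anesthetics, by the difference of both log2 fold changes in a fit of all 16 libraries. Of 62 members, 2 differed, both toward a larger rise under isoflurane, where 2.72% of all genes were called, 1.66% higher and 1.06% lower. They were Eif4a2, the second eIF4A helicase, and Eif4b, the cofactor that stimulates eIF4A. Eif4a2 measured 252, 320, 384 and 324 CPM in Isoflurane-Sepsis against 228, 226, 199 and 231 in Isoflurane-Control, and 229, 238, 222 and 208 CPM in Propofol-Sepsis against 232, 236, 239 and 216 in Propofol-Control. The Isoflurane-Sepsis libraries lay above the libraries of the other 3 groups, which overlapped each other. Its log2 fold change was 0.54 (adjusted p = 0.00822) under isoflurane and -0.05 (adjusted p = 0.582) under propofol, with a difference of 0.57 ± 0.141 (adjusted p = 0.0441). Eif4b measured 188, 242, 268 and 243 CPM against 170, 170, 165 and 186 under isoflurane, and 164, 181, 178 and 167 CPM against 179, 175, 193 and 180 under propofol. Its changes were 0.45 (adjusted p = 0.0104) and -0.08 (adjusted p = 0.295), with a difference of 0.52 ± 0.124 (adjusted p = 0.0404). Library 1 was the lowest Isoflurane-Sepsis library for both genes.

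Both differences were close to the threshold. The call was lost in 12 of 16 fits with 1 library left out for Eif4a2 and in 13 of 16 for Eif4b, with adjusted p-values of at most 0.0930 and 0.0878, and both were lost without a filter on low counts (0.0588 and 0.0578). Without library 10 both were called. DESeq2 called these 2 together with Eef1a1, Eef2 and Eif3a. In edgeR the difference was 0.27 for Eef1a1 (adjusted p = 0.0717), 0.22 for Eef2 (0.0813), 0.37 for Eif3a (0.0910) and 0.71 for Eif4ebp1 (0.110), while on the lower side Eif4ebp3 stood at -0.62 (0.118), Eif1ax at -0.22 (0.135) and Eif4ebp2 at -0.27 (0.231). Across the members 47 of 62 lay above 0, with a median of 0.10 against -0.02 over all genes. At an unadjusted p below 0.05 there were 15 members, and the share of all genes at that cut is not given here. The anesthetic and the induction drug differed together and cannot be told apart in any difference between the anesthetics. A prefix in the names of the deposited tables also differs between the anesthetics, and what it marks is not given in the sources used here. The neutrophil and monocyte marker sum spanned 36.9 to 117 CPM in Isoflurane-Sepsis and 37.2 to 54.2 CPM in Propofol-Sepsis, with library 1 at its low end. In the test of the difference 0 of 7 of these markers were called, and 1 of 7 Kupffer cell and macrophage markers was called higher. Stellate cell markers summed to 289, 208, 229 and 484 CPM in libraries 1 to 4. The part of these cells in the result was not tested.

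**Figure D3:**
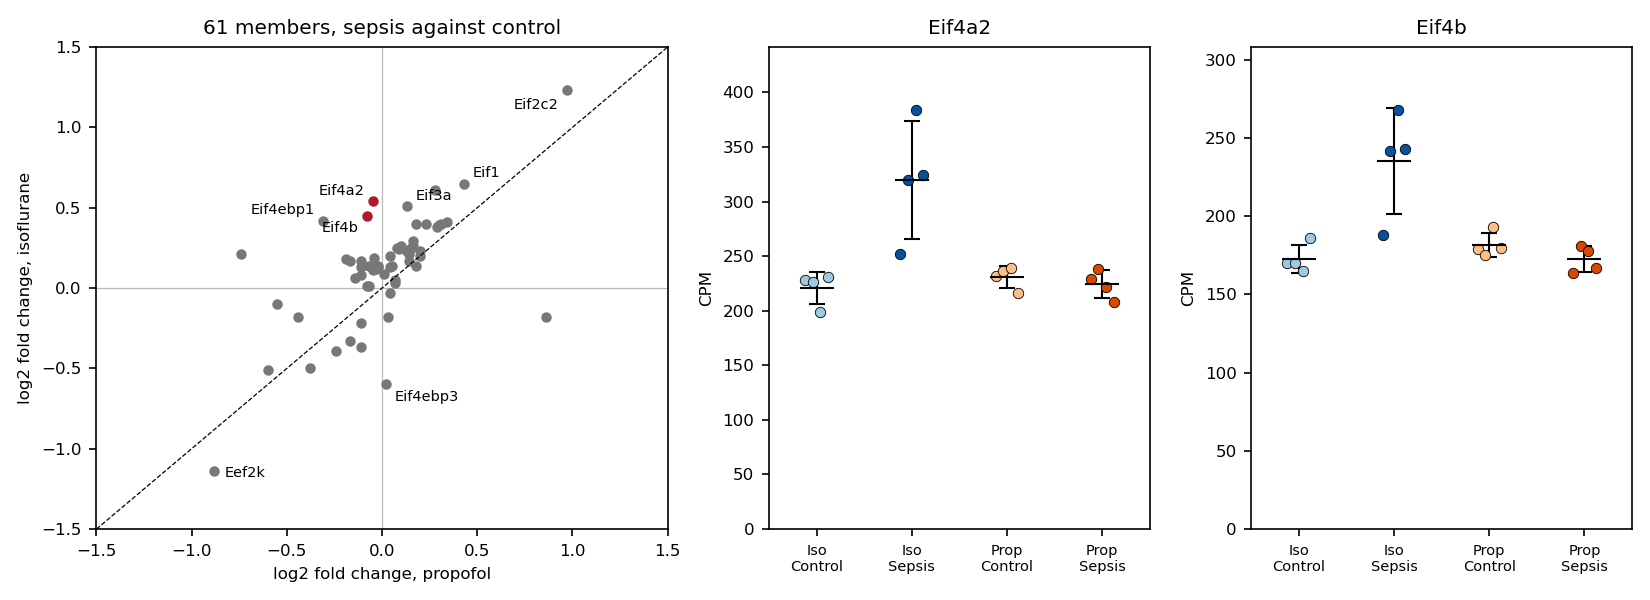
Left, log2 fold change of 61 members between sepsis and control under propofol (x axis) and isoflurane (y axis), with the dashed line where both are equal and red points for the 2 members whose difference was called. Middle and right, CPM of Eif4a2 and Eif4b by library with mean and SD of 4 libraries; Isoflurane-Sepsis reaches 384 and 268 CPM, against at most 239 and 193 CPM in the other groups.

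The fourth comparison set the control groups against each other. Of 61 members tested, 3 were higher and 24 lower in Isoflurane-Control than in Propofol-Control, where 21.6% of all genes were called higher and 21.7% lower. The median was -0.13, and 49 of 61 members lay below 0. The groups did not overlap for 4 members that were higher and 30 that were lower, against 40.3% of all genes, 20.4% higher and 20.0% lower. At an adjusted p below 0.05, 43.3% of all genes and 44.3% of the members were called. The lower members were spread over most roles. They included 3 of 5 in the eIF2 group, namely Eif2a and the subunit genes Eif2s1 and Eif2s2. Also lower were 4 of 5 for eIF2B, 8 of 13 for eIF3, and 4 of 5 tested in the elongation factor 1 group. The latter count includes Eef1e1, described below. All 13 eIF3 subunits and all 5 eIF2B subunits lay below 0. By library totals alone the median of all genes moved to -0.15, and 1 member was higher and 45 lower, but again 12 of 61 lay above the median gene. Hepatocyte markers, summed, were at 170138 to 179927 CPM in Isoflurane-Control and 133764 to 145868 CPM in Propofol-Control, and their part in the result was not tested. These libraries are the controls of the comparisons above, so the differences are not independent of them.

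The largest difference was that of Eif4ebp1, at 36.3, 35.4, 36.0 and 37.2 CPM in Isoflurane-Control and 55.4, 69.3, 73.2 and 47.0 CPM in Propofol-Control. The groups did not overlap, and the log2 fold change was -0.76 ± 0.118 (adjusted p = 5.7e-04). Eef1e1, a scaffold protein of the aminoacyl-tRNA synthetase complex despite its name, measured 17.1, 17.5, 18.7 and 18.8 CPM against 25.9, 28.6, 30.3 and 24.9 (-0.60 ± 0.0719, adjusted p = 1.1e-04). With sepsis Eef1e1 held 20.1, 25.3, 17.2 and 19.0 CPM under isoflurane and 21.9, 20.7, 26.5 and 27.5 CPM under propofol, overlapping the controls in each case. Eif2b2 measured 15.8, 16.3, 15.2 and 15.9 CPM against 19.6, 22.4, 24.8 and 21.1 (-0.48, adjusted p = 5.3e-04), and Eif2s2, the beta subunit of eIF2, was lower by -0.40 (adjusted p = 1.1e-04). The higher members were Eif2c2 (0.44, adjusted p = 0.00419), Eif1 (0.34, adjusted p = 0.00416) and Eif2ak4 (0.30, adjusted p = 0.00823), each without overlap between the control groups. By library totals alone Eif1 and Eif2ak4 lost that call (adjusted p = 0.0560 and 0.102), and in the fit of all 16 libraries Eif2c2 did (0.132). Over the 4 groups, Isoflurane-Control had the lowest mean for 37 of the 62 members and the highest for 3.

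**Figure D4:**
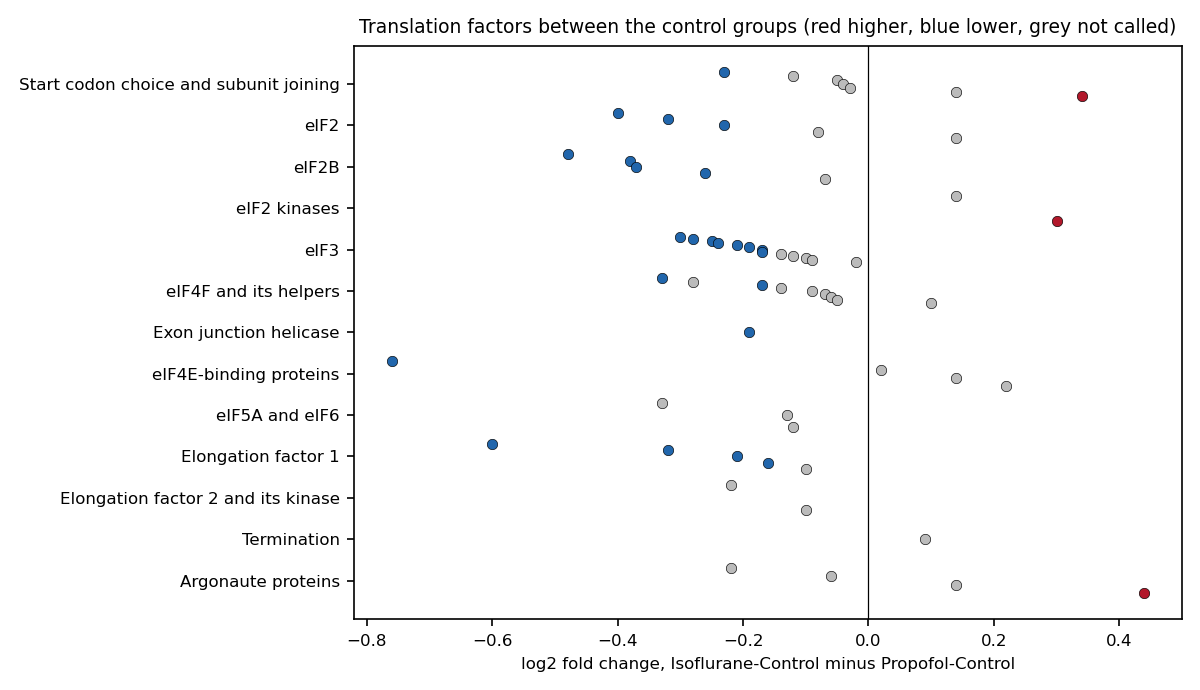
Log2 fold change of 61 members between Isoflurane-Control and Propofol-Control by role, 1 point for each gene. Blue points (24) were called lower and red points (3) higher in Isoflurane-Control; the points of eIF2B and eIF3 all lie left of 0, and the lowest point is Eif4ebp1 at -0.76.

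Other genes of the pathway were counted from a list of 43 regulators, of which 35 were tested. Under isoflurane 13 were higher and 2 lower (median 0.14), and under propofol 11 were higher and 3 lower (median 0.12), against the background shares above. Ppp1r15a, the stress-induced subunit that directs a phosphatase to eIF2, rose by 1.40 (adjusted p = 0.00251) and 1.03 (adjusted p = 1.7e-04). Eif2ak3, the endoplasmic reticulum kinase of eIF2 (PERK), rose by 0.86 and 0.71, in contrast to the fall of Eif2ak4. Pabpc1, the poly(A)-binding protein, rose by 0.40 and 0.18, and Ddx3x, a helicase used in scanning, by 0.39 and 0.37. Among the mTOR regulators, Ddit4, an mTOR inhibitor, rose by 2.35 ± 0.677 under isoflurane (adjusted p = 0.0182) and had a value of 0.13 under propofol (adjusted p = 0.516). Sesn1 fell by 0.38 and 0.46 and the mTOR subunit gene Mlst8 by 0.46 and 0.38. Mknk2, a kinase of eIF4E, fell by 0.85 under propofol (adjusted p = 2.7e-04) and had a value of -0.20 under isoflurane (adjusted p = 0.491). The gene of mTOR itself was called in neither. In the test of the difference between the anesthetics none of the 35 was called.

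Promoters of the members were searched for 2 letter patterns on both strands, in RefSeq windows of 250 bases before to 50 after the gene start (GRCr8). The pattern CACGTG, the E-box bound by MYC and related factors, was in 10 of the 55 members with a window (18.2%), against 7.08% of 27457 genes with one and 9.55% of the 7347 of these with a mean of at least 1 CPM. The members holding it were Eef2, Eef2k, Eif1b, Eif3a, Eif3b, Eif3f, Eif4e, Eif4h, Eif5a and Eif5a2. They did not share a direction: Eef2k fell under both anesthetics, Eif5a rose under both, Eef2, Eif3a and Eif3b rose under isoflurane, and the other five were called in neither. TGATGNAAT, the element shared by C/EBP and ATF factors, was in 0 of 55 members and 1.14% of genes. These 4 windows show the E-box (capitals) with its flanks in a kinase gene and its substrate, in the factor that rose under both anesthetics and in the cap-binding protein, each written 5′ to 3′ on the strand of the gene; a match of letters is no evidence that a factor binds there.
Eef2k, chr1:184824303-184824388, plus strand: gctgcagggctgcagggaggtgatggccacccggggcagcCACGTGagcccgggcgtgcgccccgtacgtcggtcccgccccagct
Eef2, chr7:9189269-9189354, minus strand: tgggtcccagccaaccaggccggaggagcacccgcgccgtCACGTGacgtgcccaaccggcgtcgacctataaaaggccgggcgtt
Eif5a, chr10:55143382-55143467, minus strand: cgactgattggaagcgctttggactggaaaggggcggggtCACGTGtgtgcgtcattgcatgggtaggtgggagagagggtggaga
Eif4e, chr2:229740633-229740718, plus strand: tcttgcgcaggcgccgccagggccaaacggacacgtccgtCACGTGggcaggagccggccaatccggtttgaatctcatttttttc

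The E-box began 77 bases before the gene start in Eef2k, 76 before it in Eef2 and 206 before it in Eif5a. Eif4e held E-boxes at 80 and at 237 bases before the gene start, and the window shows the one at 80. Of the 4 genes shown, Eef2k fell from between 5.25 and 7.19 CPM in the controls to between 2.18 and 4.44 CPM in sepsis, while Eif4e was not called in either sepsis comparison.

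Low members were read with their counts. Eef1a2, the eEF1A of muscle and brain, reached 23.5 CPM (482 reads) in library 10 and between 0.0499 and 0.904 CPM in the other 15 libraries. Eif5a2, the second eIF5A gene, reached 4.05 CPM (83 reads) in library 10 and between 0.325 and 1.16 CPM elsewhere. Library 10 was also the library with 363 CPM of brain markers, and 5 skeletal muscle markers summed to at most 0.604 CPM in any library. The source of the Eef1a2 and Eif5a2 reads in library 10 was not tested. The log2 fold change of Eef1a2 under propofol was 3.81 (adjusted p = 0.0554) with library 10 and 0.28 (adjusted p = 0.697) without it, and that of Eif5a2 was 0.86 (adjusted p = 0.258) with and -0.11 (adjusted p = 0.815) without it. Eef1a2 did not pass the filter on low counts in the isoflurane comparison.

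**Figure D5:**
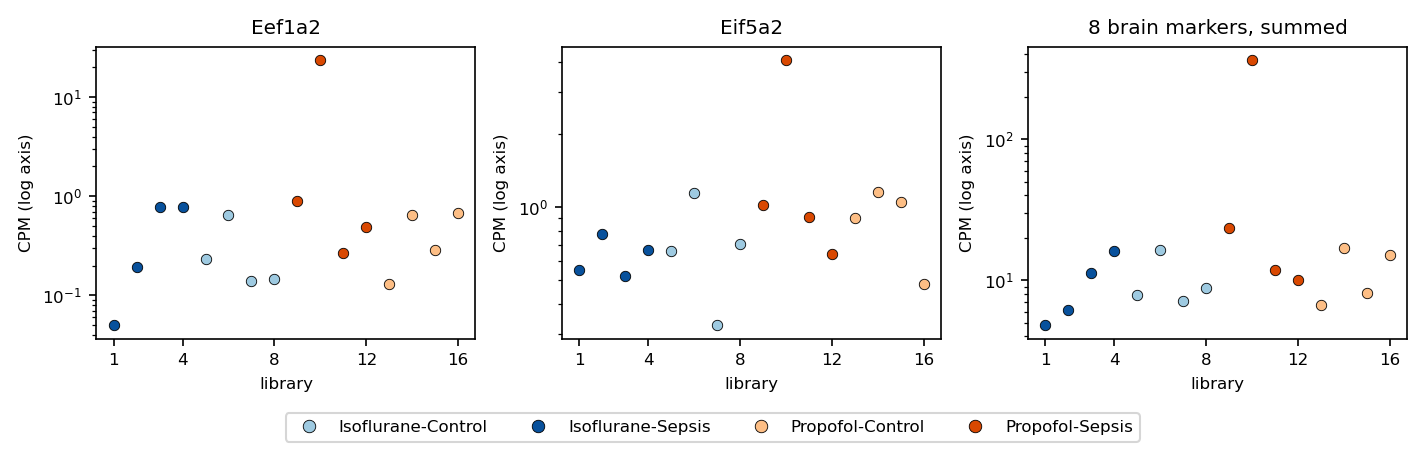
CPM (log axis) of Eef1a2, of Eif5a2 and of 8 brain markers, summed, in each of the 16 libraries, coloured by group. Library 10 of Propofol-Sepsis stands above the other 15 in all 3 panels, at 23.5, 4.05 and 363 CPM.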

How the data were processed

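Liver RNA of 48 rats was sequenced as 16 poly(A) libraries made with a strand-specific kit. The authors deposited raw read counts per gene symbol, 1 table per library. The submitters' processing notes name the aligner STAR and the build rn5. The counting program and annotation were not given in the sources used here. Entries for reads outside genes (21.6 to 25.4% of the reads listed) and for ambiguous reads (1.07 to 1.35%) entered neither library sizes nor tests. Depth was 14199422 to 49937173 reads on genes per library, which limits only the lowest members.

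The members, roles and lists, and the rule for genes given library by library, were chosen with earlier results of these data known. That rule took in each sepsis comparison the 6 largest called rises and falls at a mean of at least 1 CPM, in the difference between anesthetics the called members and the 3 smallest p-values in each direction, between controls the 3 largest called in each direction, and 11 factors whatever their values.

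Counts were fitted over the whole table with edgeR 4.0.16 in R 4.3.3 (quasi-likelihood test, filterByExpr with a count minimum of 10 and a total of 15, TMM), in the 8 libraries of each comparison, or all 16 for the difference between anesthetics. p-values were adjusted by Benjamini-Hochberg over all genes tested, 10314 to 10621 per comparison, and called below 0.05. The ± beside a log2 fold change is its SE, and intervals are 95% intervals. CPM used 1 TMM scaling of all libraries. Library pairs within a group differed by more than counting noise (chi-square of at least 3.35 per degree of freedom in 24 pairs), and each library counted as 1 replicate. That value was 24.1 to 96.3 in Isoflurane-Sepsis, 3.35 to 12.1 in Isoflurane-Control, 7.59 to 44.7 in Propofol-Sepsis and 6.38 to 26.9 in Propofol-Control. The fit of all 16 libraries shares 1 estimate of the spread over the 4 groups. Library numbers are not shared between groups, so no pairing was used. Scripts were tested on simulated counts. Alternatives were RLE scaling, library totals alone, DESeq2 1.42.0, limma-voom (limma 3.58.1), other filters, counts thinned to the shallowest library, a threshold of 0.01, all libraries in 1 fit, and leaving out each library. Symbols were matched to RefSeq (GRCr8), 56 by symbol and 6 by synonym; no GRCr8 coordinate was combined with the rn5 counts.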

Additional observations from a re-analysis of the deposited data

Results flagged for a closer look

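The response of Eif4a2 to sepsis was called different between the anesthetics, by 0.57 on the log2 scale, and that of Eif4b by 0.52. Each call came from a test of the difference in all 16 libraries (edgeR, adjusted p = 0.0441 and 0.0404). The members called were 3.23% of those tested, beside 2.72% of all genes. The calls were lost in 12 and 13 of the 16 fits with 1 library left out. Both genes had higher values in all 4 Isoflurane-Sepsis libraries than in any Isoflurane-Control library. Eif4b in library 1, at 188 CPM, lay below Propofol-Control library 15 at 193 CPM.

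In 4 libraries of a group, a value far from the other 3 was looked for in 108 sets of values (27 members in 4 groups), and chance would mark about 1 in 20 such sets. There were 2, both in library 7 of Isoflurane-Control: Eif1 at 144 CPM, where the others held 179 to 184 CPM, and Eif4a2 at 199 CPM, where the others held 226 to 231 CPM. Without library 7 the log2 fold change under isoflurane was 0.58 for Eif1 (adjusted p = 0.00260) and 0.49 for Eif4a2 (adjusted p = 0.0294), and the difference between anesthetics for Eif4a2 was 0.53 (adjusted p = 0.0930).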

How the results depend on the processing

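At an adjusted p below 0.01 the number of members called was 13 under isoflurane, 7 under propofol and 0 for the difference between anesthetics in edgeR, where 15 members had an unadjusted p below 0.05. That difference gave 5 members in DESeq2 and 0 without a filter on low counts. Between the controls, library totals alone gave 46 members (1 higher and 45 lower), a scaling in which the median gene lay at -0.15. Leaving out 1 library gave 21 to 34 members under isoflurane, 12 to 19 under propofol, 0 to 5 for the difference and 24 to 28 between the controls. In the difference, 12 of the 16 such fits gave 0 members, library 16 left out gave 1, library 10 gave 2, library 4 gave 4 and library 1 gave 5. The log2 fold change of Eif4e under propofol, 0.04 and not called, turned to -0.01 by library totals alone and to -0.01 without Propofol-Control library 14 (lowest and highest with 1 library left out, -0.01 and 0.10). Between the controls, the fit of all 16 libraries gave 18 members in place of 27. Apart from library totals alone, the share of all genes called in these settings, or with an unadjusted p below 0.05, is not given here. Whether the counts of members follow the whole set of genes cannot be told from them. No paired analysis was possible because the library numbers are not shared between groups. With 4 pools per group, small differences near the threshold, such as those of Eif2b5, Etf1 and Eef1a1, fell on either side of it by the setting. Depth limits Eif4e3, Eif5a2, Eef1a2, Eif2c3 and Eif2c4, which held few reads.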
